A study of Mus musculus with 16 samples.

Results

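Interferon-stimulated genes are the genes that a cell switches on when an interferon binds its receptor. The 47 genes described here were taken from a fixed list of names, of which 30 are typical of the type I response and 17 of the type II response. All 47 were found among the 34264 genes of the cortex table, and 45 among the 24722 genes of the glomerular table. The antiviral genes Mx1 and Mx2 were not analysed in glomeruli, and the annotation used here types Mx2 as a polymorphic pseudogene. Ddx58, which encodes the RNA sensor RIG-I, is also written Rigi.

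The RNA came from renal cortex, which is mostly tubule, and from glomeruli, the capillary tufts that filter blood, after their isolation. All mice were wild type and 24 weeks old, and every library carries the label of batch 1. The 4 groups of 4 libraries were diabetic glomeruli and control glomeruli, and diabetic cortex and control cortex. Diabetic mice were those labelled HFD/STZ, for a fat-rich diet combined with streptozotocin, which kills the beta cells that make insulin. The labels call the others control. The groups therefore do not separate the diet, the toxin and the diabetic state. The series' title is about the histone methyltransferase NSD2 and Hippo signalling in podocytes, and the comparison made here is diabetic against control in each tissue.

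Type I interferons (the alpha and beta interferons) signal through the receptor chains IFNAR1 and IFNAR2 and the kinases JAK1 and TYK2. These phosphorylate STAT2, which joins IRF9 in a complex that binds the interferon-stimulated response element (ISRE). Type II interferon (interferon gamma, made mainly by T and NK cells) signals through IFNGR1 and IFNGR2. It acts through the gamma-activated site (GAS) and induces IRF1, antigen-processing genes and immunity GTPases. The programmes overlap, and of the 47 members 14 are known to respond strongly to both (for example Irf7, Stat2, Bst2, Irf1 and Tap1), so the division into 30 and 17 is one of emphasis. Proximal tubule cells and resident macrophages of the kidney respond to both types.

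The sequences around the transcription starts show what the lists share. Windows of 300 bases around RefSeq starts (GRCm38.p6) ran from 250 bases before the start to 50 after. They were present for 36 members, 21 of type I and 15 of type II. An ISRE core, GAAANNGAAA on either strand, was found in 52.4% of the type I windows (11 of 21) and in 53.3% of the type II windows (8 of 15). It was found in 3.99% of the 27025 genes that have a window. The longer form GAAANNGAAACT was in 5 of 21 and 5 of 15 windows, against 0.303% of all genes. A GAS, TTCNNNGAA, which reads the same on both strands, was in 46.7% of the type II windows (7 of 15), in 28.6% of the type I windows (6 of 21) and in 9.55% of all genes. Both motifs were present in 7 members (Bst2, Eif2ak2, Gbp5, Gbp7, Igtp, Irgm2 and Oas1a), and they overlapped in Bst2. The ISRE cores of Ddx58, Eif2ak2 and Ifih1 and the GAS of Ifi35 lie after the start. A match describes letters only and is not evidence of binding.

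The following stretches are the 150 bases before the RefSeq start of 6 members, given 5′ to 3′ on the gene's own strand. They were chosen because the motif lies there and because no annotated exon of the gene overlaps them. Capitals mark the ISRE cores of Isg15, Bst2, Oas1a and Socs1, the ISRE core and the GAS of Igtp, and the GAS of Irf1.
Isg15 (chr4:156200819-156200968, minus strand): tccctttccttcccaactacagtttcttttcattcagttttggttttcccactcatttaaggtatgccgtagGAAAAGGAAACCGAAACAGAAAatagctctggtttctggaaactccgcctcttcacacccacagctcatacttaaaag
Bst2 (chr8:71537473-71537622, minus strand): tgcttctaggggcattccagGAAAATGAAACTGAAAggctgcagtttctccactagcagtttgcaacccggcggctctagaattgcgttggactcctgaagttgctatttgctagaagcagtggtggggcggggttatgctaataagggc
Oas1a (chr5:120907526-120907675, minus strand): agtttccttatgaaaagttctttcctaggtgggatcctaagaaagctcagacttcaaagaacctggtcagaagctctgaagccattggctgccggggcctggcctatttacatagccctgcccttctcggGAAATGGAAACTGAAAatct
Socs1 (chr16:10785537-10785686, minus strand): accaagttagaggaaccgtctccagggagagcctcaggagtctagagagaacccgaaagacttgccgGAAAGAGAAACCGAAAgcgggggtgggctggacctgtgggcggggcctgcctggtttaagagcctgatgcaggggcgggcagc
Igtp (chr11:58199406-58199555, plus strand): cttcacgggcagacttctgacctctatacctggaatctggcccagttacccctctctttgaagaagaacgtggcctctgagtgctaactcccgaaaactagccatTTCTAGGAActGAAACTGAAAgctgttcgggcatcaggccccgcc
Irf1 (chr11:53769864-53770013, plus strand): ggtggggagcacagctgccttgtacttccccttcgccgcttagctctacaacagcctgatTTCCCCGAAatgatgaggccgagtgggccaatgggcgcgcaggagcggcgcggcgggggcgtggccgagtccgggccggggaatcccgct
In Isg15, 3 cores overlap between positions -78 and -57 from the start, and in Bst2, Oas1a and Socs1 there are 2 overlapping cores each. In Igtp the GAS, which ends at position -37, and the ISRE core, which begins at position -34, lie next to each other.

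Total counts per library were 36339294 to 40696477 in diabetic glomeruli and 40001932 to 41876031 in control glomeruli. They were 60628981 to 72352656 in diabetic cortex and 57473100 to 69947387 in control cortex. In the glomeruli, diabetic libraries 1 and 4 (chi-square per gene 6.69, against 66.2 to 97.9 for other pairs) and control libraries 3 and 4 (2.76, against 45.7 to 84.4) were much more alike than the remaining pairs of libraries. Each pair was summed and counted as 1 sample, so that n = 3 in each glomerular group and n = 4 in each cortex group. The labels number the libraries without saying whether each is its own animal. The p-values therefore set each difference only against the variation among these samples, and that variation may be technical. Podocyte markers summed to 2151 to 4220 CPM in diabetic glomeruli and 4572 to 5752 CPM in control glomeruli, and to 302 to 346 CPM in diabetic cortex and 341 to 372 CPM in control cortex. CPM are counts scaled to a library of 1000000, and log2 fold changes are diabetic against control ± SE.

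Several libraries stood apart. Control cortex library 4 had a chi-square per gene of 77.7 to 96.2 to the other control libraries, which differed from each other by 18.4 to 28.4. It held the highest control value of 43 of the 47 members, and its Umod and Slc12a1 (thick ascending limb genes) were at 4856 and 2008 CPM, against at most 3231 and 878 CPM in the other control libraries (genes chosen after their values were seen). Diabetic cortex library 1 held the lowest diabetic value of 45 members. In glomeruli, control library 2 held the highest control value of 41 of the 44 members tested. Diabetic glomerular libraries 1 and 4 summed, and library 3, held more tubule RNA: distal nephron markers summed to 1727, 74.3 and 787 CPM in diabetic libraries 1 and 4 summed, 2 and 3, against 55.2 to 75.9 CPM in control libraries. Mesangial and smooth muscle markers summed to 3333 to 6000.4 CPM in diabetic glomeruli and 17354 to 19821 CPM in control glomeruli.

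In diabetic cortex the interferon-stimulated genes were higher almost throughout. By edgeR's quasi-likelihood test, with p-values adjusted after Benjamini and Hochberg and a threshold of 0.05, 42 of 47 members rose and 0 fell. Of all 19228 genes tested, 10.8% rose and 9.29% fell. At an unadjusted p under 0.05, 45 members were higher and 0 lower, and DESeq2 called 45 higher and 0 lower. The median log2 fold change was 1.10 over the 47 members and -0.0036 over all genes tested. In 37 members every diabetic library lay above every control library, which was so for 13.5% of all genes. Without control library 4, 45 members rose and the medians were 1.58 for type I and 1.28 for type II. In bulk tissue, more cells of a type and more RNA per cell cannot be told apart.

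Transcription factors and feedback genes rose in all 7 cases. Irf7 (chromosome 7, 141262706 to 141266481), the factor that amplifies type I interferon production, had 36.8, 70.0, 43.7 and 51.1 CPM in diabetic cortex, against 8.30, 10.7, 12.6 and 16.0 CPM in control cortex. The lowest diabetic library was above the highest control library, and the log2 fold change was 2.08 ± 0.25 (edgeR adjusted p = 0.00148). The partners of the ISRE-binding complex moved less: Stat2 rose by 0.56 ± 0.11 and Irf9 by 0.33 ± 0.07 on the log2 scale. Of the factors of the type II response, Irf1 rose by 0.86 ± 0.24 and Irf8, a factor of myeloid cells, by 0.81 ± 0.16. The feedback inhibitors Socs1, which blocks JAK kinases, and Usp18, which removes ISG15 from proteins and dampens IFNAR2, rose by 1.39 ± 0.39 and 0.95 ± 0.23. Irf1 lost its call under 7 of 15 alternatives. Among these were the fits without control library 1, 2 or 3, or without diabetic library 2, 3 or 4, with log2 fold changes of 0.75 to 0.95. Socs1 lost its call under 6 of 15 alternatives (without control library 2, 3 or 4, or diabetic library 1, 3 or 4), and Usp18 under 2 (without diabetic library 2, and with a replicate block).

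Of the 6 sensors of foreign nucleic acid and their regulators, 5 rose. Ddx58 (RIG-I) had 33.8, 48.6, 41.8 and 40.7 CPM in diabetic cortex, against 21.1, 22.9, 23.2 and 25.0 CPM in control cortex (log2 0.84 ± 0.10, edgeR adjusted p = 0.00101). Ifih1, which encodes the long-RNA sensor MDA5, had 18.2, 23.4, 21.5 and 23.3 CPM in diabetic cortex, against 12.2, 10.3, 13.0 and 14.9 CPM in control cortex (0.78 ± 0.12, 0.00257). Neither gene's groups overlapped. Zbp1, a sensor of Z-form nucleic acid that can start necroptosis, was less abundant and differed more, at 4.07, 7.84, 5.73 and 4.99 CPM in diabetic cortex and 1.32, 0.981, 1.20 and 1.72 CPM in control cortex (2.11 ± 0.25, 0.000824). Dhx58 (LGP2), the third RIG-I-like receptor, rose by 1.51 ± 0.26, and the kinase Eif2ak2 (PKR), which stops translation, by 0.39 ± 0.11. The call of Eif2ak2 was lost under 9 of 15 alternatives, among them library totals and leaving out control library 2 or 3 or diabetic library 2, 3 or 4. Trim25, the ubiquitin ligase that activates RIG-I, was the most abundant type I member per length in control cortex, at 13.5 ± 1.15 FPKM in diabetic and 14.0 ± 0.674 FPKM in control cortex (SD, n = 4 each). It had 76.7, 88.6, 83.2 and 82.7 CPM in diabetic cortex, against 91.0, 94.9, 90.7 and 77.4 CPM in control cortex, with overlapping groups and a log2 fold change of -0.10 ± 0.07 (edgeR adjusted p = 0.409).

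The antiviral effectors held the largest changes. Of 20, 18 rose, and their median log2 fold change was 1.5. Oasl1 (chromosome 5, 114923240 to 114937915), an inhibitor of Irf7 translation in mice, had 8.09, 14.5, 11.5 and 10.6 CPM in diabetic cortex, against 1.87, 1.42, 1.96 and 2.22 CPM in control cortex. This was the largest log2 fold change of the 47 members (2.57 ± 0.21, edgeR adjusted p = 0.00011). Isg15 (chromosome 4, 156199424 to 156200818), a ubiquitin-like protein that is joined to other proteins, had 5.14, 7.05, 6.70 and 5.29 CPM in diabetic cortex, against 1.06, 1.70, 1.60 and 1.54 CPM in control cortex (2.03 ± 0.20, 0.00033). Both genes separated the groups by a factor well above the spread within them.

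Bst2 (chromosome 8, 71534255 to 71537456), which encodes tetherin, a membrane protein that holds budding virus on the cell, had 29.8, 57.1, 43.9 and 49.0 CPM in diabetic cortex, against 8.62, 8.29, 9.19 and 13.9 CPM in control cortex (log2 2.17 ± 0.23, edgeR adjusted p = 0.000925). Per length it was the most abundant member of all 47 in diabetic cortex, at 46.9 ± 12.7 FPKM, against 10.2 ± 3.14 FPKM in control cortex. The 2′-5′ oligoadenylate synthetases, which activate RNase L, rose together: Oas2 had 9.19, 17.1, 11.5 and 11.6 CPM in diabetic cortex and 2.01, 3.03, 2.77 and 4.49 CPM in control cortex (2.00 ± 0.26, 0.00121). Its relatives Oas1a (2.03 ± 0.33) and Oas3 (2.53 ± 0.41) also rose, although Oas3 was the least abundant member per length in both groups. Close copies share reads in the Oas, Ifit, Gbp and Irg families, so values of single members of these families are uncertain.

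Ifi27l2a, a small mitochondrial and nuclear envelope protein, had 5.44, 8.45, 6.90 and 6.02 CPM in diabetic cortex and 1.05, 1.13, 1.70 and 2.35 CPM in control cortex (log2 2.10 ± 0.27, edgeR adjusted p = 0.00108). Mx1, a dynamin-like GTPase that blocks influenza virus, was rare, at 1.61, 2.52, 2.32 and 2.40 CPM in diabetic cortex and 0.651, 0.629, 0.293 and 0.749 CPM in control cortex (1.93 ± 0.31, 0.00272). In both, each diabetic library was above each control library. The other effectors that rose had log2 fold changes from 0.58 (Ifi44) to 1.87 (Ifit1, which binds foreign 5′ ends of RNA). Of these, Ifit2 and Rtp4 lost their calls under 8 of 15 alternatives each, Mx2 under 7 and Rsad2 under 4, most of them fits with 1 library left out. Samhd1, which degrades dNTPs, and Ifit3 were not called, at 0.43 ± 0.14 (adjusted p = 0.0502) and 1.34 ± 0.46 (0.0843). Ifit3 had 25.0 CPM in control library 4 and 6.61 to 7.47 CPM in the other control libraries.

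The type II members had a median fold of 2.06 in diabetic against control cortex. Of the 8 interferon-inducible GTPases, which attack the vacuoles of intracellular pathogens, 6 rose, and of the 6 antigen-processing genes all 6. Irgm1 (chromosome 11, 48861968 to 48871683), a regulator of the other immunity GTPases and of autophagy, had 62.9, 103, 80.3 and 95.7 CPM in diabetic cortex, against 35.4, 41.6, 37.8 and 42 CPM in control cortex (log2 1.12 ± 0.14, edgeR adjusted p = 0.00115). Gbp2 rose by 1.31 ± 0.26, Igtp by 1.22 ± 0.26, and Gbp3, Gbp5 and Iigp1 by 1.01 to 1.10. Iigp1 lost its call under 6 of 15 alternatives, among them leaving out control library 2 or 3 or diabetic library 2, 3 or 4. Gbp7 (0.71 ± 0.25, adjusted p = 0.0745) and Irgm2 (0.52 ± 0.23, 0.153) were not called. Igtp and Irgm2 overlap in the annotation, and so do Psmb9 and Tap1.

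Psmb10, a catalytic subunit of the immunoproteasome, had 14.2, 19.1, 18.8 and 21.6 CPM in diabetic cortex, against 7.46, 9.51, 7.89 and 11.4 CPM in control cortex (log2 1.02 ± 0.16, edgeR adjusted p = 0.00257). The other subunits of the same particle changed by similar amounts (Psmb8 1.16 ± 0.28, Psmb9 1.01 ± 0.23), and Psmb8 lost its call without control library 2 or diabetic library 2 or 4. Tap1 and Tap2, which form the peptide transporter of the endoplasmic reticulum, rose by 1.42 ± 0.24 and 1.10 ± 0.19. Tapbp (chromosome 17, 33915899 to 33929292), which encodes tapasin, the bridge from that transporter to class I molecules, was the most abundant type II member and changed least of the 6. It had 81.0, 99.4, 92.3 and 91.8 CPM in diabetic cortex, against 56.5, 57.8, 64.2 and 72.8 CPM in control cortex (0.54 ± 0.09, 0.00354). Its groups did not overlap, at 23.6 ± 2.58 FPKM in diabetic and 15.9 ± 2.54 FPKM in control cortex.

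**Figure D1:**
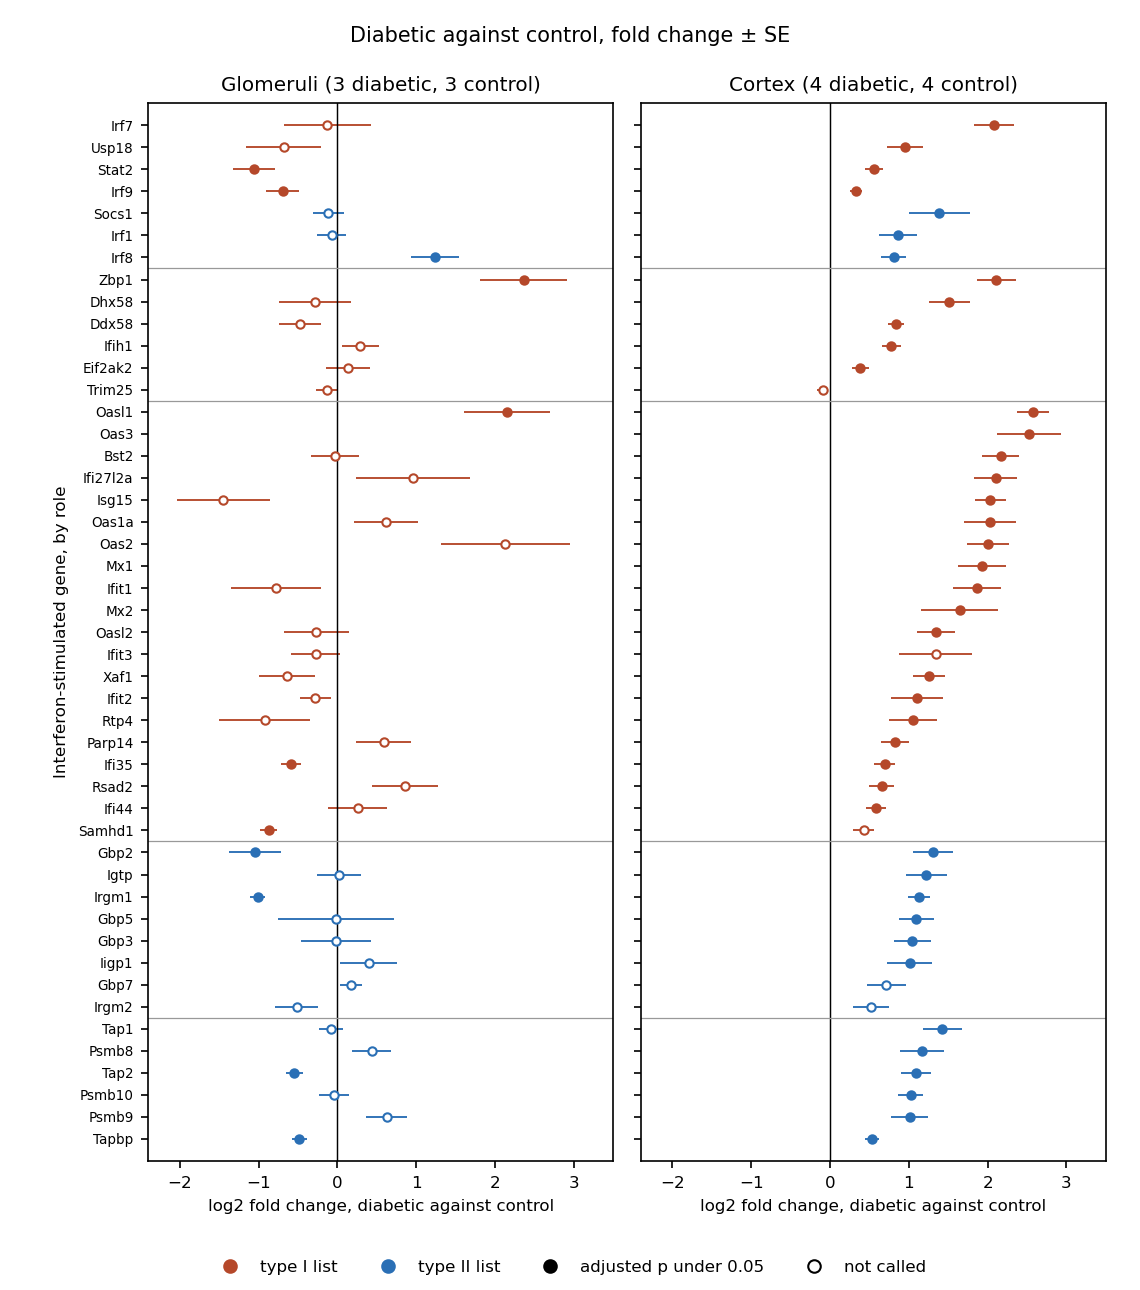
Log2 fold change ± SE of each member in diabetic against control glomeruli (left) and cortex (right), ordered by role, with the type I list in red and the type II list in blue and filled points for an adjusted p under 0.05. In cortex 42 points are filled and all of these lie above 0, and in glomeruli 3 filled points lie above 0 and 8 below.

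Set side by side in cortex, 27 of the 30 type I members and 15 of the 17 type II members rose. The median log2 fold change was 1.29 in the type I list and 1.04 in the type II list, and the type I list spread wider, from -0.10 to 2.57, against 0.52 to 1.42 in the type II list. A call with a log2 fold change above 1 was reached by 17 type I and 12 type II members, and by 3.93% of all genes. Leaving out the 14 members that respond to both types gave medians of 1.35 over 21 type I members and 1.03 over 12 type II members. The order of the medians did not hold for log2(FPKM + 1), which shrinks rare genes, at 0.70 for type I and 0.80 for type II. The difference between the lists was not tested.

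Both lists were also followed by library. Relative to the control mean, the median type I member stood at 0.88, 1.59, 1.29 and 1.24 on the log2 scale in diabetic cortex libraries 1 to 4, against -0.21, -0.17, -0.11 and 0.40 in control libraries 1 to 4. The median type II member stood at 0.61, 1.07, 1.04 and 1.16 in diabetic cortex and at -0.38, -0.16, 0.02 and 0.49 in control cortex. No diabetic library overlapped a control library in either list, but the highest diabetic library was 2 for type I and 4 for type II. The type I median minus the type II median was 0.27, 0.52, 0.25 and 0.08 in the diabetic libraries and 0.18, -0.01, -0.13 and -0.09 in the control libraries, so on this difference the groups overlapped. The highest members came from diabetic library 2 for 25 of 30 type I genes and for 9 of 17 type II genes, and from library 4 for 2 and 6.

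Genes of other cells moved with the cortex result. Of 19 macrophage and dendritic cell markers 14 rose and 0 fell, and their summed level was 559 to 866 CPM in diabetic cortex and 230.3 to 399.7 CPM in control cortex. Within both groups the library with the highest value of most members (diabetic 2 and control 4) also had the highest macrophage sum. This did not hold for the type II median, which was highest in diabetic library 4. The macrophage sum of that library was 638 CPM, below the 866 and 804 CPM of diabetic libraries 2 and 3. The complement genes C1qa, C1qb and C1qc, made by tissue macrophages, and Fcer1g, a signalling chain of Fc receptors, had the smallest adjusted p and rose by 1.90 ± 0.25, 1.72 ± 0.21, 1.58 ± 0.20 and 1.37 ± 0.16. Cd74 and Csf1r were chosen after their values were seen. The class II invariant chain Cd74, itself induced by interferon gamma, made up much of this sum, with 339 to 547 CPM in diabetic cortex and 127 to 216 CPM in control cortex, whereas the receptor gene Csf1r had 44.9 to 65.2 CPM in diabetic and 49.8 to 97.4 CPM in control cortex. T, NK and B cell markers summed to 11.3 to 19.7 CPM in diabetic and 5.79 to 9.01 CPM in control cortex, with 4 of 14 tested called higher. No marker of either list was at 0 in every library. Of 10 proximal tubule markers 6 fell and 0 rose, with a median log2 fold change of -0.46, and the smallest adjusted p belonged to the transporter genes Slc5a12 (-1.14 ± 0.12), Slc6a19 (-1.28 ± 0.15) and Slc5a2 (-1.01 ± 0.20) and the endocytic receptor gene Cubn (-0.31 ± 0.06). These markers summed to 18015 to 24527 CPM in diabetic and 20534 to 29966 CPM in control cortex. The part of these cells in the result was not tested.

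The interferons themselves were at or near the limit of detection. Ifng had 30 counts over the 4 diabetic cortex libraries and 13 over the 4 control libraries, in 3 and 1 libraries above 0. Ifna2 had 0 counts in all 8 cortex libraries, which allows up to 0.0112 CPM in the diabetic and 0.0119 CPM in the control group (3 counts over the group). The other alpha, beta and lambda genes of the ligand list were not analysed in cortex. Among the 6 receptor genes, both chains for interferon gamma rose (Ifngr1 0.68 ± 0.08, Ifngr2 0.62 ± 0.09) and so did the lambda receptor Ifnlr1 (0.98 ± 0.18). The type I receptor genes were not called (Ifnar1 -0.0045 ± 0.07, Ifnar2 0.21 ± 0.08, edgeR adjusted p = 0.974 and 0.0932), and neither was Il10rb.

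Among the signalling genes reported here, Stat3, used by many cytokines, rose by 0.89 ± 0.07 in diabetic cortex. Socs3, a feedback inhibitor best known for cytokines that use STAT3, rose by 1.98 ± 0.30. Irf3 (0.25 ± 0.06), Irf5 (0.39 ± 0.09) and Ptpn6 (0.25 ± 0.07) rose slightly, and Pias1, a SUMO ligase that restrains STAT signalling, fell (-0.25 ± 0.07). Of 14 further genes of nucleic acid sensing, 6 rose (Aim2 1.62 ± 0.37, Ifi204 1.56 ± 0.29, Tmem173, which encodes STING, 0.95 ± 0.19, Tlr7, Ikbke and Adar) and 1 fell (Tbk1 -0.27 ± 0.07). Of 53 tested genes in a wider list of interferon-regulated genes, 31 rose and 0 fell, with a median of 0.77. The 4 with the smallest adjusted p were the chemokine Cxcl10, at 31.0 CPM on average in diabetic and 3.30 CPM in control cortex (3.23 ± 0.15, edgeR adjusted p = 5.99e-06), the class I light chain B2m (1.20 ± 0.14), Apol9a (2.81 ± 0.36) and Lgals3bp (1.71 ± 0.21).

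In diabetic glomeruli the same genes did not move together. Of the 44 members tested by edgeR's quasi-likelihood test, 3 rose, 8 fell and 33 were not called. Of all 15238 genes tested, 19.4% rose and 18.2% fell. As shares of the members tested these calls were 6.82% higher and 18.2% lower, near or below those shares of all genes; the difference was not tested. With library totals in place of TMM scaling the median of all glomerular genes moved from 0.0096 to 0.20 and all calls split into 4390 higher and 1661 lower, against 2950 and 2767 as reported. The median log2 fold change was -0.27 in the type I list and -0.04 in the type II list. Without control library 2 these were 0.12 and 0.17, so the sign of both medians depended on 1 library. With library totals they were -0.08 and 0.14, so the sign of the type II median depended on the scaling as well. Groups did not overlap for 3 members higher and 8 lower, against 26.6% and 27.6% of all genes.

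The 8 members that fell came from several roles. They were 2 of 6 antigen-processing genes, 2 of 8 GTPases, 2 of 17 antiviral effectors and 2 of 7 transcription and feedback genes. The last 2 were Stat2 and Irf9 of the ISRE-binding complex. As a share, 18.2% of the members tested and 18.2% of all genes fell. Irgm1 had 92.4, 96.9 and 96.9 CPM in diabetic glomeruli (libraries 1 and 4 summed, 2, and 3), against 177, 215 and 185 CPM in control glomeruli (libraries 1, 2, and 3 and 4 summed). Its log2 fold change was -1.01 ± 0.10 (edgeR adjusted p = 0.000864). Its call held under all 15 alternatives. The calls of Samhd1, Tapbp, Tap2 and Ifi35 held under 14, and were lost in the fit that keeps a single diabetic library. Samhd1 had 62.6, 63.5 and 63.2 CPM in diabetic glomeruli, against 126, 98.3 and 121 CPM in control glomeruli (-0.87 ± 0.11, 0.0018). Tapbp, the most abundant member in glomeruli per length, had 171, 162 and 169 CPM in diabetic glomeruli, against 237, 252 and 212 CPM in control glomeruli (-0.48 ± 0.09, 0.00763). In all 3 genes each diabetic library was below each control library.

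Tap2 had 40.0, 35.3 and 32.6 CPM in diabetic glomeruli, against 52.5, 56.8 and 48.5 CPM in control glomeruli (log2 -0.55 ± 0.11, edgeR adjusted p = 0.00843). Ifi35, a leucine zipper protein that interacts with Nmi, had 19.5, 18.2 and 20.5 CPM in diabetic glomeruli, against 28.4, 33.8 and 25.2 CPM in control glomeruli (-0.59 ± 0.13, 0.0126). Stat2 had 33.3, 24.4 and 23.6 CPM in diabetic glomeruli, against 45.6, 79.4 and 44.1 CPM in control glomeruli (-1.06 ± 0.26, 0.0214). The value of 79.4 CPM is that of control library 2, and without that library the groups still did not overlap. Irf9 had 30.1, 23.2 and 20.9 CPM in diabetic glomeruli, against 36.8, 50.8 and 32.5 CPM in control glomeruli (-0.69 ± 0.21, 0.0387). Gbp2 had 14.6, 10.7 and 15.5 CPM in diabetic glomeruli, against 21.8, 43.3 and 19.3 CPM in control glomeruli (-1.04 ± 0.33, 0.0455). Without control library 2 the fold changes of Irf9 and Gbp2 were -0.50 and -0.60 and neither was called. They also lost their calls without control library 1, or without diabetic library 2 or 3, and Stat2 without diabetic library 2 or 3. Of the 15 alternatives, Gbp2 lost its call under 11, Irf9 under 8 and Stat2 under 4.

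Of the members that rose in diabetic glomeruli, Oasl1 and Zbp1 are type I and Irf8 is type II. Oasl1 had 4.75, 2.53 and 2.62 CPM in diabetic glomeruli, against 0.537, 1.35 and 0.381 CPM in control glomeruli (log2 2.15 ± 0.54, edgeR adjusted p = 0.0224). Zbp1 had 2.01, 0.639 and 2.69 CPM in diabetic glomeruli, against 0.322, 0.397 and 0.318 CPM in control glomeruli (2.37 ± 0.55, 0.0164). Both genes were rare, and the Zbp1 levels were highest in the diabetic libraries with tubule RNA, whose part in the result was not tested. Irf8 had 6.94, 5.62 and 10.0 CPM in diabetic glomeruli, against 3.36, 3.97 and 2.28 CPM in control glomeruli (1.24 ± 0.31, 0.02). All 3 lost their calls without control library 1 and without control libraries 3 and 4. Of 15 alternatives, Oasl1 and Zbp1 lost their calls under 4 each and Irf8 under 3. With diabetic libraries 1, 3 and 4 left out, 0 members rose and 1 fell. Over all members, diabetic libraries 1 and 4 summed held the highest diabetic value of 34 of 44.

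**Figure D2:**
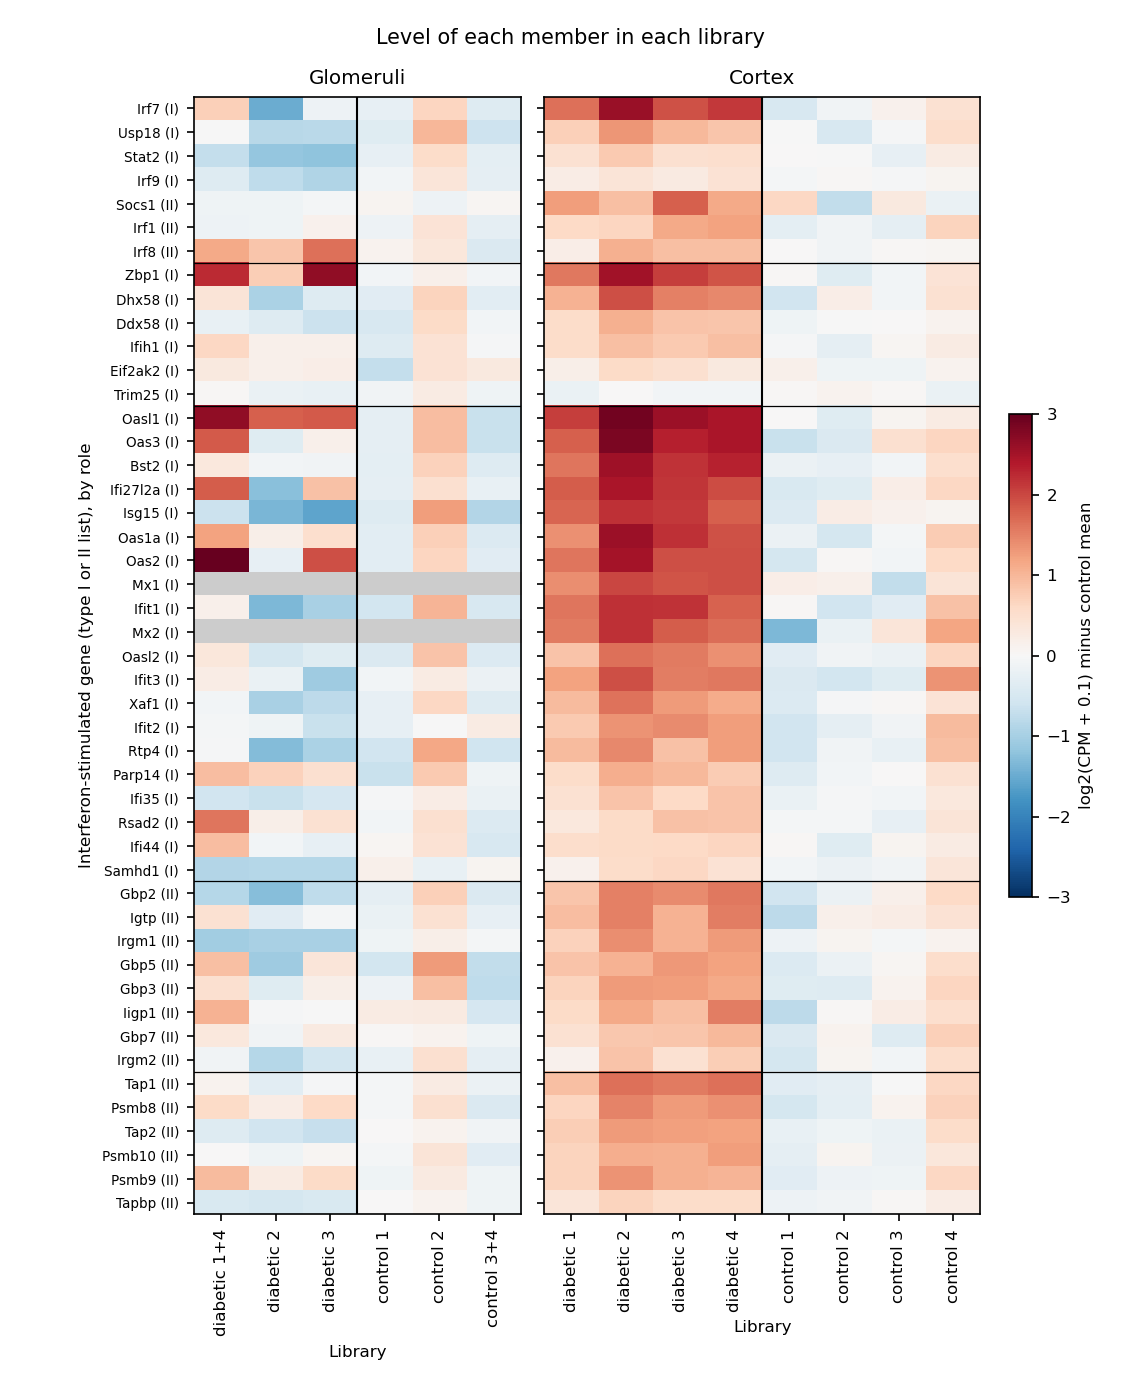
Log2(CPM + 0.1) of each member in each library minus its mean over the control libraries of the tissue, with diabetic libraries left of the line in each panel, genes grouped by role, and grey for Mx1 and Mx2 in glomeruli. Colours end at 3 in both directions. The cortex panel separates diabetic from control libraries, with control library 4 the warmest of the controls, while in the glomerular panel diabetic libraries 1 and 4 summed and control library 2 are the warmest.

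Members that were among the leaders in cortex varied widely within the glomerular groups. Isg15 had 8.05, 4.77 and 4.17 CPM in diabetic glomeruli, against 9.62, 30.2 and 6.83 CPM in control glomeruli (log2 -1.45 ± 0.59, edgeR adjusted p = 0.0964). Bst2 had 52.9, 40.5 and 39.8 CPM in diabetic glomeruli, against 34.9, 69.2 and 32.5 CPM in control glomeruli (-0.03 ± 0.30, 0.943). Irf7 had 31.4, 6.69 and 17 CPM in diabetic glomeruli, against 16.0, 29.9 and 14.5 CPM in control glomeruli (-0.13 ± 0.55, 0.878). In each of these genes control library 2 was the highest control. The remaining members not called ranged from -0.92 (Rtp4) to 2.13 (Oas2), and Oas3 was below the filter on low counts.

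**Figure D3:**
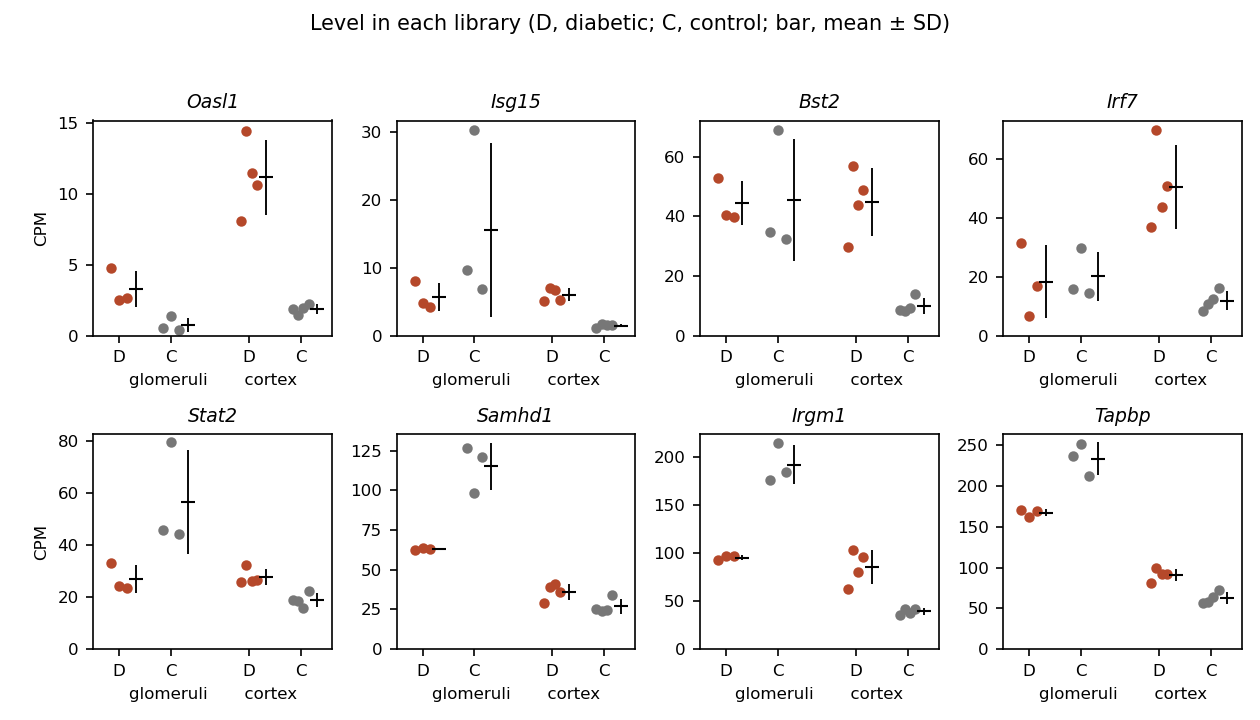
CPM of 8 members in each library (points) with the mean ± SD (black), for diabetic (D) and control (C) glomeruli and cortex, each axis starting at 0. Oasl1 is higher in diabetic libraries of both tissues, Irgm1, Tapbp and Stat2 are lower in diabetic glomeruli and higher in diabetic cortex, and the glomerular values of Isg15, Bst2 and Irf7 overlap.

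Calls among interferon pathway genes in glomeruli went in both directions as well. Of all genes tested in glomeruli, 19.4% rose and 18.2% fell. Ifnlr1, the receptor chain specific to interferon lambda and known from epithelia, rose by 4.21 ± 0.37 on the log2 scale, to 10.6 CPM on average in diabetic glomeruli, against 0.577 CPM in control glomeruli. It had 10.8, 12.9 and 8.22 CPM in diabetic libraries 1 and 4 summed, 2, and 3, and so was highest in library 2, which held the least tubule RNA of these. Ifngr1 also rose (0.42 ± 0.09), while the type I receptor gene Ifnar2 (-0.69 ± 0.12) and Il10rb (-0.37 ± 0.07) fell. Among the signalling genes reported here Ptpn6 rose (2.34 ± 0.33), and Stat3 (-0.58 ± 0.09), Pias1 (-0.43 ± 0.10) and Irf3 (-0.28 ± 0.08) fell. Of 13 sensing genes 3 rose (Tlr3 1.49 ± 0.31, Ikbke 0.79 ± 0.14, Tmem173 0.55 ± 0.16) and 1 fell (Ticam1 -0.47 ± 0.10). Of the cytokines, Il15 rose (0.83 ± 0.26) and Il18 fell (-0.86 ± 0.23), and Ifng had 4 counts in diabetic and 18 in control glomeruli. Of 48 tested genes of the wider list 6 rose and 5 fell, with a median of 0.10. These shares, 12.5% and 10.4%, were below those of all genes. The smallest adjusted p in that list belonged to Serping1 (-1.93 ± 0.17), Lgals9 (-1.58 ± 0.16), Tgtp1 (-3.11 ± 0.41) and Ifitm2 (-0.65 ± 0.10), which all fell. Of 16 macrophage and dendritic cell markers tested in glomeruli, 6 rose and 1 fell, with a median log2 fold change of 1.34. The smallest adjusted p belonged to Cd74 (3.63 ± 0.55), Aif1 (2.56 ± 0.58), Ccr2 (3.28 ± 0.82) and Cx3cr1 (2.23 ± 0.61), which all rose. The lysozyme gene Lyz2, chosen after its values were seen, fell to 72.9, 67.7 and 187 CPM in diabetic glomeruli, against 307, 583 and 217 CPM in control glomeruli. It made up much of the summed level, which was 249.7 to 712 CPM in diabetic and 316 to 759 CPM in control glomeruli. Diabetic library 3, which had the highest Irf8 level, and control library 2 had the highest sums of their groups, and the part of these cells in the members' results was not tested.

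Whether the diabetic effect differed between the tissues was tested directly, as the interaction term in a fit of 16307 genes joined over both tables. The fit treated cortex and glomerular samples as independent, and whether any came from the same mouse was not examined. Of the 45 members tested, 23 were lower in glomeruli than in cortex and 0 higher by edgeR's quasi-likelihood test, against 16.3% lower and 18.8% higher of all genes. At an unadjusted p under 0.05 the counts were 27 lower and 0 higher, and DESeq2 called 27 lower and 0 higher. The median difference, glomeruli minus cortex, was -1.18 over the members and 0.042 over all genes, and 41 of 45 members were below 0. Library totals gave 18 lower and 0 higher, where the median of all genes was 0.19 and all calls split into 4060 higher and 1826 lower, against 3065 and 2651 as reported. Without control cortex library 4 there were 29 lower, without control glomerular library 2 there were 18, and without diabetic glomerular libraries 1, 3 and 4 there were 22, with 0 higher in each.

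The smallest adjusted p belonged to Irgm1, with a log2 fold change of -1.01 in glomeruli and 1.12 in cortex and a difference of -2.13 ± 0.19 (edgeR adjusted p = 4.43e-06). Tapbp (-1.01 ± 0.13) and Tap2 (-1.64 ± 0.26) likewise fell in glomeruli and rose in cortex. So did Stat2 (-1.60 ± 0.28), Irf9 (-1.01 ± 0.20), Ifi35 (-1.27 ± 0.20) and Gbp2 (-2.34 ± 0.44), which makes 7 of 44 members called in opposite directions. The share of all genes with opposite calls was not counted. Called lower in glomeruli were 18.2% of the members tested and 18.2% of all genes tested there. The glomerular calls of Gbp2 and Irf9 were lost under 11 and 8 of 15 alternatives. Samhd1 differed by -1.29 ± 0.20, although its rise in cortex was not called. Isg15 (-3.45 ± 0.60, adjusted p = 0.000818), Bst2 (-2.19 ± 0.40), Ddx58 (-1.30 ± 0.28) and Xaf1 (-1.87 ± 0.41) rose in cortex and were not called in glomeruli. The largest difference of the 23 was that of Isg15 and the smallest that of Tapbp and Irf9. In all, 29 of the 44 members tested in both tissues were called higher in cortex and not called in glomeruli. That pairing of calls does not by itself show a difference, and its share over all genes was not counted. It covers Isg15, whose difference was called. It also covers Oas2 (0.18 ± 0.80, edgeR adjusted p = 0.888) and Rsad2 (0.23 ± 0.45, 0.731), whose differences were not.

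For 3 members, Oasl1, Zbp1 and Irf8, the call was higher in both tissues, a share not counted over all genes. Their differences were -0.38 ± 0.53, 0.27 ± 0.56 and 0.45 ± 0.33 on the log2 scale (edgeR adjusted p = 0.618, 0.747 and 0.323), which does not show that the effects are equal. Both types were represented among the 23 differences, with 15 of 28 type I and 8 of 17 type II members, and medians of -1.30 and -1.04. Across the 44 members the fold changes of the tissues had a Spearman rho of 0.17 and a Pearson r of 0.37, across genes that are not independent.

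**Figure D4:**
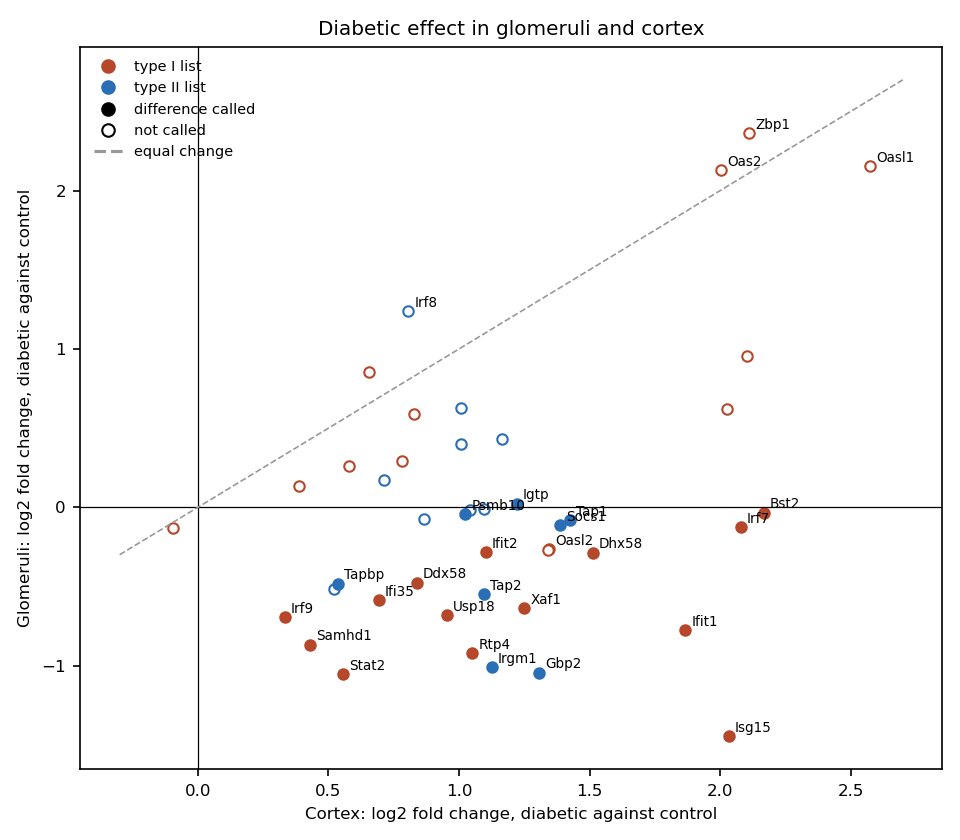
Log2 fold change of each member in diabetic against control glomeruli (vertical) and cortex (horizontal), with the type I list in red, the type II list in blue, filled points where the difference between tissues was called, and a dashed line of equal change. The 23 filled points lie below the dashed line, and Zbp1, Oas2 and Oasl1 lie near it at the upper right.

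Levels per length were set side by side without a test, since the tables were made separately. The median member had 5.44 FPKM in diabetic and 4.94 FPKM in control glomeruli, and 4.75 FPKM in diabetic and 2.10 FPKM in control cortex. The glomerular medians are over 45 members and the cortex medians over 47, which include the rare Mx1 and Mx2. Irgm1 averaged 36.8 ± 0.814 FPKM in diabetic and 65.2 ± 7.71 FPKM in control glomeruli (SD, n = 3 each), and 13.8 ± 3.08 FPKM in diabetic and 6.17 ± 0.618 FPKM in control cortex (SD, n = 4 each). Bst2 averaged 58.7 ± 10.7 FPKM in diabetic and 52.9 ± 24.3 FPKM in control glomeruli, so that its 46.9 FPKM in diabetic cortex came near the glomerular values. Tapbp led the members in glomeruli, at 64.9 ± 2.18 FPKM in diabetic and 79.7 ± 6.70 FPKM in control samples.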

How the data were processed

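RNA of 16 mouse libraries was measured, from 1.3 µg of input RNA. Per the labels' protocols, extraction used Qiagen RNeasy and libraries a SMARTER kit for mRNA. The glomerular table deposited by the authors holds raw read counts per gene symbol, and the cortex table deposited by the authors holds one estimated count per Ensembl gene and library, already made whole. Both are called so from their values. Not given in the sources used here are the counting tool, the annotation and strandedness. The FPKM tables were also deposited by the authors. GRCm38 and mm10 are named in the submitters' processing notes.

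Symbols were matched through RefSeq (19796 glomerular symbols directly, 50 by synonyms, 4876 unmatched with 4.76% of the counts, and 2311 cortex identifiers unmatched with 0.32%). Genes were filtered with filterByExpr, scaled by TMM and tested with edgeR 4.0.16 (quasi-likelihood, R 4.3.3), with Benjamini-Hochberg adjustment over all genes tested at 0.05. DESeq2 1.42.0 and limma 3.58.1 on log2(FPKM + 1) and log2(FPKM + 0.1) were alternatives, beside other scaling, no filter, each sample left out, unsummed libraries and a replicate block. Reads are not independent molecules, so the limits for a count of 0 cover counting error only.

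The members and lists were chosen with earlier results of these data known. Values per library are given for members called, at most the 12 with the smallest adjusted p per comparison, and for the most abundant member of each list. Called pathway genes are named, and at most 4 genes of each other list, by adjusted p. One gene of the signalling list is not reported here.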

Additional observations from a re-analysis of the deposited data

Results flagged for a closer look

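Single cortex libraries lay far from the other 3 of their group for 8 member values by Dixon's criterion, out of 94 groups of values examined. Chance flags about 1 in 20 groups. In control library 4 these were Ifit3 (25.0 CPM), Bst2 (13.9 CPM), Samhd1 (34.1 CPM), Irf1 (22.5 CPM), Psmb9 (6.51 CPM) and Tap2 (24.7 CPM), all above the other control libraries. Diabetic library 2 was high for Stat2 (32.5 CPM), and diabetic library 1 was low for Tap2 (28.2 CPM). The 6 high values in control library 4 stood in the library that also had the highest Umod and macrophage marker levels of its group, whose part in them was not tested.

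The diabetic effect differed between glomeruli and cortex, by the interaction term in edgeR, for 23 members, each lower in glomeruli. On the log2 scale, glomeruli minus cortex, the type I differences were Isg15 -3.45, Ifit1 -2.61, Bst2 -2.19, Irf7 -2.18, Rtp4 -1.94, Xaf1 -1.87, Dhx58 -1.77, Usp18 -1.61, Stat2 -1.60, Oasl2 -1.59, Ifit2 -1.38, Ddx58 -1.30, Samhd1 -1.29, Ifi35 -1.27 and Irf9 -1.01. The type II differences were Gbp2 -2.34, Irgm1 -2.13, Tap2 -1.64, Tap1 -1.50, Socs1 -1.49, Igtp -1.18, Psmb10 -1.06 and Tapbp -1.01. Of the 21 alternatives for this difference, the call was lost under 12 for Rtp4, 9 for Usp18, 9 for Igtp, 7 for Ifit2, 5 for Socs1, 4 for Oasl2 and 1 for Dhx58. The other 16 calls held under each.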

How the results depend on the processing

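In cortex 32 of the 42 calls held under all 15 alternatives and none reversed. With each sample left out in turn 33 to 45 members rose. The type I median was 0.70 with log2(FPKM + 1), against 1.29 as reported. In glomeruli none of the 11 calls reversed: Irgm1 held under all 15 alternatives, and Samhd1, Tapbp, Tap2 and Ifi35 under 14, lost in the fit with 1 diabetic library, which is too small to judge them. There, 0 to 5 members rose and 5 to 8 fell with each sample left out in turn (0 rose without control library 1 or without 3 and 4, 1 without diabetic libraries 1 and 4, and 5 without control library 2 or diabetic library 2, while 5 fell without diabetic library 2 or 3), 6 rose with 8 separate libraries, 5 fell with log2(FPKM + 1), and 0 rose and 1 fell without diabetic libraries 1, 3 and 4, a fit in which the lone diabetic library is assumed to vary like the control ones. For the difference between tissues 16 of 23 calls held under every alternative, with 18 to 29 lower when each sample was left out, and 0 higher. The causes of these shifts were not tested.

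Within each tissue, diabetic and control libraries with the same replicate number did not deviate together (correlations of -0.103 to 0.043 in cortex and -0.058 to 0.107 in glomeruli). The numbers were therefore not taken as pairs of a diabetic and a control library. Whether cortex and glomerular libraries with the same number come from the same mouse was not examined. With a replicate block 42 members rose and 0 fell in cortex, 3 rose and 7 fell in glomeruli with 8 separate libraries, and 23 were lower and 0 higher for the difference between tissues. Over all cortex genes the block gave 1389 higher and 986 lower, against 2069 and 1787 without it. Over all genes in glomeruli, 1661 fell with library totals, 1631 with log2(FPKM + 1) and 1356 rose and 937 fell without diabetic libraries 1, 3 and 4. The longer ISRE form left 5 type I and 5 type II windows, against 11 and 8 with the core. The FPKM fits were not run for the difference between tissues, since the tables were normalised separately.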
